A study of Mus musculus with 8 samples.

Results

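The 42 collagen genes of the array were compared in colon epithelial cells of C57BL/6J mice. A gene was a member when the single platform symbol of its row had the form of a collagen chain gene (Col, a type number, a, a chain number). These 42 genes were found among 19505 genes with 1 symbol, and each had 1 row. They comprised 11 fibrillar, 6 basement membrane (type IV) and 8 FACIT collagen genes, FACIT collagens being those that attach to the surface of fibrils, and 17 genes of other classes, Col18a1 among them. The 4 groups, of 2 arrays each, were SMS2 knockout mice given DSS, untreated SMS2 knockout mice, WT mice given DSS and untreated WT mice. Sgms2 encodes SMS2, which turns ceramide into sphingomyelin, and DSS is dextran sulfate sodium, which injures the lining of the colon and was given at 3.5% in drinking water for 2 days. All groups share the strain C57BL/6J, and the arrays of a group are called biological replicates in the labels. The sources used here do not give the kind of knockout allele, the age of the mice, or the number of mice behind a replicate.

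Collagens are proteins of the extracellular matrix in which 3 chains wind into a triple helix. In the gut wall, fibrillar collagens such as types I and III are made mainly by fibroblasts of the connective tissue. Type IV collagen forms the network of basement membranes, the sheets on which epithelium and endothelium rest, and type VI forms beaded filaments in the connective tissue. Type XVIII collagen is a proteoglycan of basement membranes whose C-terminal end is released as endostatin.

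Most collagens read near or under background on these arrays. Background was set for each array at the 75th percentile of its negative-control rows, between 6.00 and 6.24 on the log2 scale. Of the 42 members, 24 were above background on no array and 11 on some of the 8 arrays. The other 7 were above it on all 8 arrays: Col3a1, Col11a2, Col16a1, Col6a1, Col6a3, Col8a2 and Col28a1. After the lowest 33.3% of genes by mean signal were left out, 24 members were tested and 18 were not. The tested members were 6 of 11 fibrillar, 4 of 6 basement membrane, 5 of 8 FACIT and 9 of 17 other collagen genes. Since a gene can pass this filter through a group in which it is high, counts over the tested members are not counts over all collagens. The same holds for the lists of other genes below.

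The promoter windows of 6 members are shown because the first 4 belong to the collagens that changed with DSS in WT mice, and the last 2 to Col4a1 and Col4a2, neighbours that start head to head. Each window holds 250 bases before and 50 after the start of the gene, from RefSeq on GRCm38.p6, written 5′ to 3′ on the strand of the gene. Capitals mark 3 promoter motifs on both strands. The motif CCAAT is the CCAAT box, read as ATTGG on the other strand. The GC box is searched as GGGCGG, and its other strand reads CCGCCC. The TATA box is searched as TATAAA, and its other strand reads TTTATA. Where matches overlap, the capitals run on.
Col3a1, chr1:45311288-45311587, plus strand: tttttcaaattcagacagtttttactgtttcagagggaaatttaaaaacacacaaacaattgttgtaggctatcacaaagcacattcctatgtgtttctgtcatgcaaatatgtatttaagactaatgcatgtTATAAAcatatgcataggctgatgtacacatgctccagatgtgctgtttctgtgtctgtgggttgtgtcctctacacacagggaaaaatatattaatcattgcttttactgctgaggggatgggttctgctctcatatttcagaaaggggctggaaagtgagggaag
Col1a2, chr6:4505368-4505667, plus strand: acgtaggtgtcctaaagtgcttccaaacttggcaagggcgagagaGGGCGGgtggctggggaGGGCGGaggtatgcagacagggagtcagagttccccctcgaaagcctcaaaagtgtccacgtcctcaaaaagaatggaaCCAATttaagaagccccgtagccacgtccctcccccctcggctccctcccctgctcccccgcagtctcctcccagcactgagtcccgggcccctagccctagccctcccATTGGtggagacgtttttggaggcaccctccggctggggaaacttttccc
Col6a2, chr10:76623355-76623654, minus strand, 1 of 2 windows in the table: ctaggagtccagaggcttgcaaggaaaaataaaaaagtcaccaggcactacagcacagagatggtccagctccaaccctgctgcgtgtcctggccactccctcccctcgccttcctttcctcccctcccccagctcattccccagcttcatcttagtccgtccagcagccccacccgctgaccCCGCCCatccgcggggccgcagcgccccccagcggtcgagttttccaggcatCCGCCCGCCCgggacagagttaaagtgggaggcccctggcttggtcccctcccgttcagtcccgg
Col18a1, chr10:77166481-77166780, minus strand, 1 of 2 windows in the table: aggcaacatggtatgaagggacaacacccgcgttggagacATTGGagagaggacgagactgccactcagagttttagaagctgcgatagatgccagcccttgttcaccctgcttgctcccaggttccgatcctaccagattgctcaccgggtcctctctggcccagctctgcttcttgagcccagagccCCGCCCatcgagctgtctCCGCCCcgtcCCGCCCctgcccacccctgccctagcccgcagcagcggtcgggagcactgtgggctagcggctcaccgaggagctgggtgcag
Col4a1, chr8:11312777-11313076, minus strand: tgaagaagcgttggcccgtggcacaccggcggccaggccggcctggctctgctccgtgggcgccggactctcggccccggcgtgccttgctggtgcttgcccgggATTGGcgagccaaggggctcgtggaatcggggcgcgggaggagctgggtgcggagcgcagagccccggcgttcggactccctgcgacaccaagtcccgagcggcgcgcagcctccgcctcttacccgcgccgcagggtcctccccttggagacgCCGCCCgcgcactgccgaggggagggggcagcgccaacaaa
Col4a2, chr8:11312555-11312854, plus strand: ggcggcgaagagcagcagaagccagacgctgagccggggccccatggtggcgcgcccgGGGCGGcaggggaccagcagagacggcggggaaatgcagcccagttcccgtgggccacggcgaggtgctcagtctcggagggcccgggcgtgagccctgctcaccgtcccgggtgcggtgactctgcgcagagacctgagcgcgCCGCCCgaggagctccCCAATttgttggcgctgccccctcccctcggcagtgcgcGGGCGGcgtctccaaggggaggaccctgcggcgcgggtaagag
The Col3a1 window held a single match, TATAAA, beginning at position -117 relative to the start of the gene, and its GC content was 37.7%. The Col1a2 window held both CCAAT and GGGCGG, with 61.0% GC. Those of Col6a2 and Col18a1 held 3 GGGCGG matches each, 2 of those in Col6a2 overlapping. The windows of Col4a1 and Col4a2 lie on opposite strands and share 78 bases. In the table, 34 members had a window, 37 windows in all. GGGCGG was found in 22 of the 37 collagen windows (59.5%) and in 35.7% of all 32851 windows. CCAAT was found in 32.4% of collagen windows and 37.4% of all, TATAAA in 13.5% and 13.6%, and the median GC content was 60.0% and 52.7%. A match describes the letters and is not a known site of binding.

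Sgms2, the targeted gene, was far lower in knockout than in WT arrays. It read 7.35 and 6.47 in knockout given DSS and 7.30 and 7.33 in untreated knockout, against 11.27 and 10.90 in WT given DSS and 10.79 and 10.76 in untreated WT. All 8 epithelial markers were above background on all arrays, and their mean signal lay between 15.85 and 16.19 on each array. Fibroblast markers were also present: the mean of 11 such genes, collagens left out, was 12.01 and 11.37 in knockout given DSS and 10.11 and 9.75 in untreated knockout, against 11.26 and 11.97 in WT given DSS and 8.38 and 8.61 in untreated WT. All 11 were above background on at least 1 array, and 10 on all 8. Smooth muscle markers were present too, with list means from 10.01 to 13.10 and 9 of 11 genes above background on all arrays. The collagen signals are therefore not levels in epithelial cells alone. In RNA from many cells, fewer cells of a type and less RNA per cell cannot be told apart. Transcripts of 3 Y-linked genes followed DSS, with list means of 8.99 and 9.95 in knockout given DSS and 9.65 and 9.77 in WT given DSS, against 3.75 and 3.90 in untreated knockout and 3.79 and 3.81 in untreated WT. The DSS comparisons therefore also set arrays with these transcripts against arrays without them, and DSS and this difference cannot be told apart. The first DSS array of each genotype stood apart as well: the mean of 10 exocrine pancreas markers was 7.69 in the first knockout array with DSS and 12.06 in the first WT array with DSS, against 6.19 to 6.69 on the other 6 arrays.

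Col3a1, Col1a2, Col6a2 and Col18a1 rose with DSS in WT mice, and no collagen gene fell. Col3a1, the single chain of type III collagen, which forms the fine fibrils of soft tissues, had signals of 11.50 and 12.16 in WT given DSS against 7.33 and 8.12 in untreated WT (TC0100000343.mm.2). Both arrays with DSS were more than 3 log2 units above both without it. The difference was 4.11 ± 0.49 (SE; 95% interval 3.03 to 5.18), a 17.2-fold change with an adjusted p of 0.000642 in limma. No other collagen gene moved as far on the log2 scale in any of the 4 pairwise comparisons.

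The other fibrillar gene that rose was Col1a2, which encodes the second chain of type I collagen, the main collagen of scar, tendon and bone (TC0600000010.mm.2). Its signals were 7.83 and 8.54 in WT given DSS against 5.45 and 6.38 in untreated WT, where 1 of 2 arrays was above background, and the groups did not overlap. The difference was 2.27 ± 0.39 (limma adjusted p = 0.00604), or 4.81-fold, a size that rests in part on the untreated array under background. Col1a1, the partner chain of type I, had signals of 6.47 and 6.90 in WT given DSS against 5.33 and 5.68 in untreated WT (TC1100001448.mm.2). The groups did not overlap either, and both untreated arrays were under background, so that the signal with DSS was at least 1.46-fold higher. Its difference of 1.18 ± 0.40 did not pass (limma adjusted p = 0.158).

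Col6a2 and Col6a1 encode 2 of the chains of type VI collagen and are adjacent on chromosome 10, with no protein-coding gene between them. Col6a2 had signals of 8.48 and 8.45 in WT given DSS against 5.82 and 6.32 in untreated WT, where 1 of 2 arrays was above background (TC1000002405.mm.2). The WT arrays with DSS differed from each other by little beside their distance to the untreated ones. The difference was 2.40 ± 0.40 (limma adjusted p = 0.0053), or 5.26-fold, a size that again rests in part on the untreated array under background. Col6a1 had 8.21 and 8.63 in WT given DSS against 7.36 and 7.52 in untreated WT (TC1000002406.mm.2), without overlap, and its difference of 0.97 ± 0.40 did not pass (limma adjusted p = 0.266). Col6a3, the gene of the remaining main chain, had 7.49 and 7.57 in WT given DSS against 6.50 and 6.68 in untreated WT, and its difference of 0.94 ± 0.50 did not pass (limma adjusted p = 0.420).

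Col18a1 lies near this pair, separated from Col6a1 by 2 protein-coding genes, Pcbp3 and Slc19a1. Its signals were 7.0 and 6.63 in WT given DSS against 5.38 and 5.38 in untreated WT (TC1000002418.mm.2). Both untreated WT arrays were under background and both arrays with DSS above it, so the signal with DSS was at least 1.60-fold higher. The fitted difference was 1.43 ± 0.34 (limma adjusted p = 0.0378). This call was lost with quantile normalization and on leaving out any 1 of the WT arrays or of the untreated knockout arrays, with adjusted p up to 0.202 and differences of 1.25 to 1.62.

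These 4 collagens were 4 of 24 tested, while 2.91% of all 13003 tested genes rose with DSS in WT and 1.12% fell. Over all 42 collagens the median difference was 0.08, against -0.03 over all genes. By class the medians were 0.39 for fibrillar, 0.23 for basement membrane, -0.19 for FACIT and 0.07 for other collagens. They rest largely on values under background, since 7 of 11 fibrillar, 4 of 6 basement membrane, 5 of 8 FACIT and 8 of 17 other collagens were above it on no array, and they are not sizes of a change. Both arrays with DSS were above both without it for 8 of 11 fibrillar collagens, 2 of 6 basement membrane, 0 of 8 FACIT and 5 of 17 others, against 18.6% of all genes. Of these, the fibrillar Col27a1, Col11a1, Col5a2, Col24a1 and Col5a1, the type IV Col4a3 and Col4a4, and Col6a4 were under background on every array. Of the 8 FACIT collagens 2 had a positive difference, and 3 were lower with DSS without overlap (Col9a1, Col9a2 and Col16a1), against 22.5% of all genes, and none passed the test. Col9a1 and Col9a2 were under background on every array. The call for Col3a1 held whichever array was left out. Without the first untreated WT array it was the only collagen called. The count was 2 without the second WT array with DSS and 7 without either knockout array with DSS. Without both arrays that carried pancreatic transcripts it was 7 too, with Col3a1 at 4.43 (limma adjusted p = 4.6e-05), in a fit with 1 array in each DSS group, assumed to vary like the untreated groups.

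**Figure D1:**
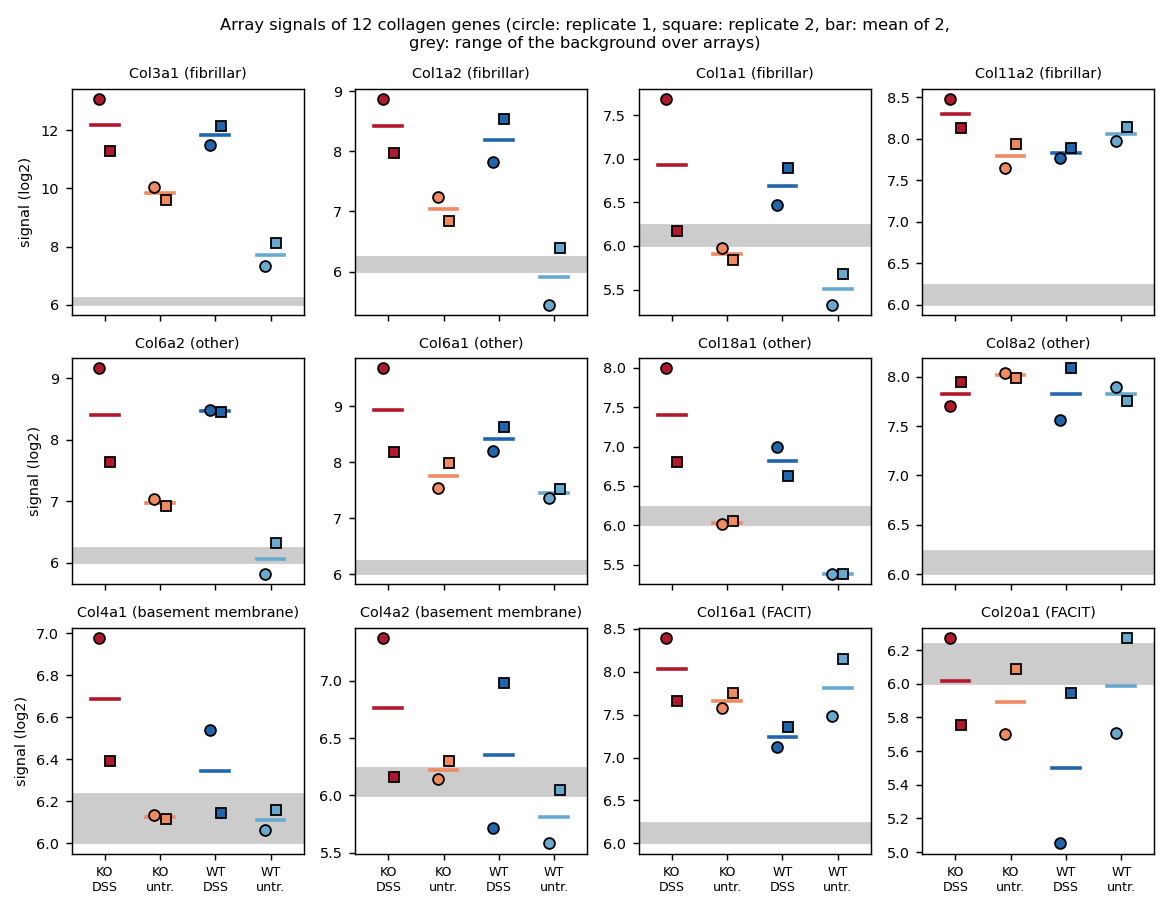
Array signals (log2) of 12 collagen genes in the 4 groups, knockout given DSS first, then untreated knockout, WT given DSS and untreated WT. Circles are replicate 1, squares replicate 2 and bars the mean of 2, and the grey band is the range of the background over arrays; Col3a1 lay above the band on all 8 arrays, while Col18a1 was above it only with DSS.

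In SMS2 knockout mice the same 4 genes had their DSS arrays above their untreated arrays, but no collagen gene passed the test in limma. Col3a1 had signals of 13.07 and 11.28 in knockout given DSS against 10.05 and 9.61 in untreated knockout. The difference was 2.34 ± 0.49 (95% interval 1.26 to 3.42), or 5.07-fold, and just missed the threshold (limma adjusted p = 0.0531). For Col1a2 the signals were 8.87 and 7.98 in knockout given DSS against 7.24 and 6.84 in untreated knockout, a difference of 1.38 ± 0.39 (limma adjusted p = 0.179). For both genes the groups did not overlap.

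Col6a2 had 9.16 and 7.64 in knockout given DSS against 7.03 and 6.92 in untreated knockout, a difference of 1.42 ± 0.40 (limma adjusted p = 0.181). Col6a1 had 9.68 and 8.19 in knockout given DSS against 7.54 and 7.98 in untreated knockout, a difference of 1.18 ± 0.40 (limma adjusted p = 0.312). Col18a1 had 7.99 and 6.81 in knockout given DSS against 6.01 and 6.05 in untreated knockout (difference 1.37 ± 0.34, limma adjusted p = 0.115). Both untreated arrays of Col18a1 were under background, which makes it at least 2.37-fold higher with DSS. In all 3 genes the groups did not overlap, and the first array with DSS was the higher of the pair by more than 1 log2 unit.

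The other type I chain, Col1a1, had 7.68 and 6.17 in knockout given DSS against 5.98 and 5.84 in untreated knockout, at least 1.70-fold higher with DSS, with a difference of 1.01 ± 0.40 (limma adjusted p = 0.423). Col6a3 had 8.95 and 6.88 in knockout given DSS against 6.92 and 6.44 in untreated knockout, and here the groups overlapped.

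No collagen was called in the knockout, while 0.538% of the tested genes rose and 0.392% fell. At an unadjusted p under 0.05 limma gave 8 of 24 collagens, all higher with DSS, against 9.52% of all tested genes in either direction. Among the 8 was Col9a1, which was under background on every array and passed the filter through these arrays with DSS. Over all 42 members 34 differences were positive, with a median of 0.29 against -0.01 over all genes. The class medians were 0.57 for fibrillar, 0.17 for basement membrane, 0.29 for FACIT and 0.16 for other collagens, again largely from values under background. Arrays did not overlap, with DSS higher, in 6 of 11 fibrillar, 1 of 6 basement membrane, 3 of 8 FACIT and 4 of 17 other collagens, against 18.1% of all genes. Of these, Col5a1, Col5a2, Col9a1, Col9a2, Col19a1 and Col8a1 were under background on every array. With DSS lower, 4 of the 42 did not overlap, against 19.1% of all genes.

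The first knockout array with DSS stood apart from its replicate. It was the highest of all 8 arrays for 29 of the 42 collagens, against 18.2% of all genes. It exceeded its replicate for 39 of 42, against 47.6% of all genes, by a median of 0.55. The replicates differed by over 1 log2 unit for 11 collagens, against 4.41% of all genes, and most for Col6a3, by 2.07. Without the second knockout array with DSS, 6 collagens passed, and without the first none did, in fits that assume the lone array to vary like the other groups. The Col3a1 difference was then 3.23 (limma adjusted p = 0.00362) and 1.45 (limma adjusted p = 0.223), in that order. The fibroblast marker mean of this array, 12.01, was the highest of the 8 too, and so were those of smooth muscle (13.10), endothelium and pericyte (9.08) and macrophage (8.38). Their part in the collagen values was not tested.

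**Figure D2:**
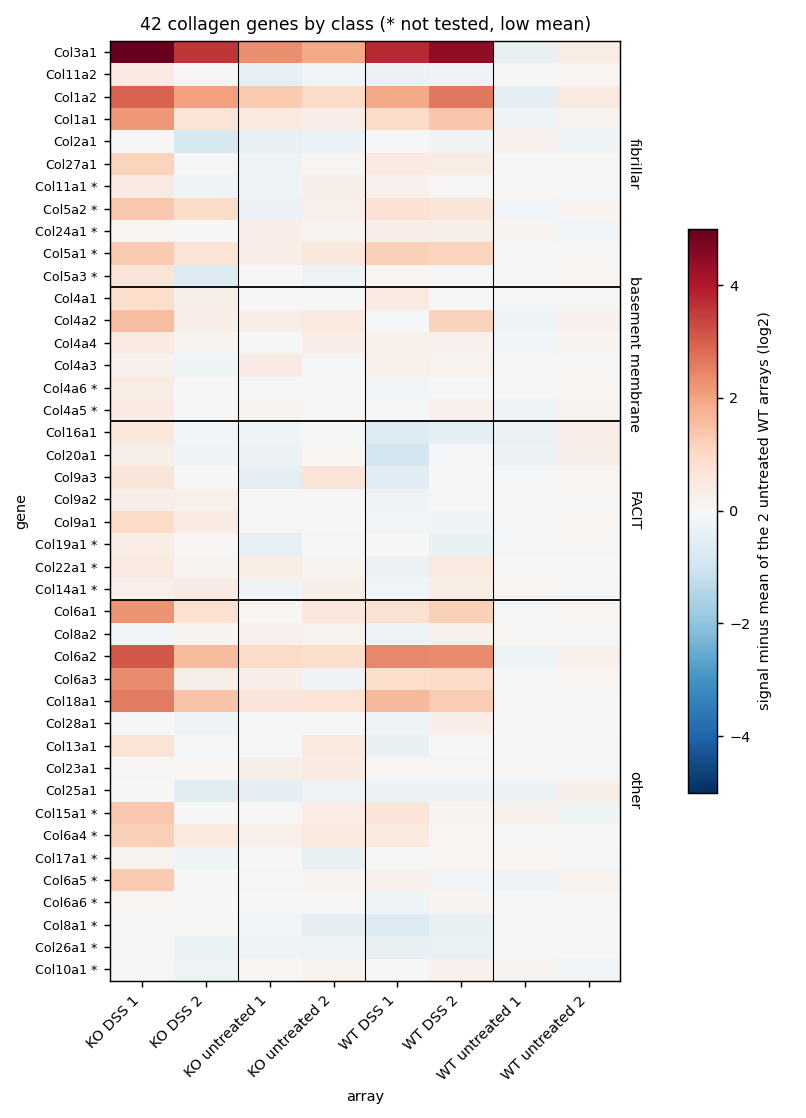
Signal of each of the 42 collagen genes on each array minus the mean of the 2 untreated WT arrays (log2), by class, with red higher and blue lower, and stars for genes not tested. Col3a1, Col1a2, Col6a2 and Col18a1 were higher with DSS in both genotypes, and the first knockout array with DSS had the highest value for 29 of the 42 genes.

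With the 4 arrays with DSS set against the 4 without, averaged over genotypes, 5 collagens rose and none fell. Col3a1 was higher by 3.22 ± 0.35 (limma adjusted p = 0.000231), Col6a2 by 1.91 ± 0.28 (0.00189), Col1a2 by 1.82 ± 0.27 (0.00198), Col18a1 by 1.40 ± 0.24 (0.00488) and Col1a1 by 1.10 ± 0.28 (0.0476). Col6a1 just missed the threshold, at 1.07 ± 0.28 (limma adjusted p = 0.0514). Of all tested genes 3.47% rose and 2.05% fell. The call for Col1a1 was lost without the first knockout array with DSS (limma adjusted p = 0.0605) and in 10 of the other 15 alternatives, while those for Col3a1, Col1a2, Col6a2 and Col18a1 held wherever they were tested.

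All 4 arrays with DSS exceeded all 4 untreated arrays for 8 collagens, 19.0% of the 42, against 3.97% of all genes, and none was lower on all 4, against 4.24% of all genes. These were 5 of 11 fibrillar genes (Col3a1, Col1a2, Col1a1, Col5a1 and Col5a2) and 3 of 17 others (Col6a1, Col6a2 and Col18a1), with no type IV or FACIT collagen among them. Col5a1 and Col5a2, chains of the minor fibrillar type V collagen that is built into type I fibrils, were under background on all 8 arrays and were not tested. Col5a2 had signals of 5.74 and 5.30 in knockout given DSS against 4.10 and 4.64 in untreated knockout, and 5.11 and 4.99 in WT given DSS against 4.24 and 4.52 in untreated WT. Col5a1 had 4.59 and 3.96 in knockout given DSS against 3.61 and 3.79 in untreated knockout, and 4.47 and 4.38 in WT given DSS against 3.20 and 3.34 in untreated WT. Below background such values have an order but no fold. Col5a2 is the neighbour of Col3a1 on chromosome 1, with no protein-coding gene between them.

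**Figure D3:**
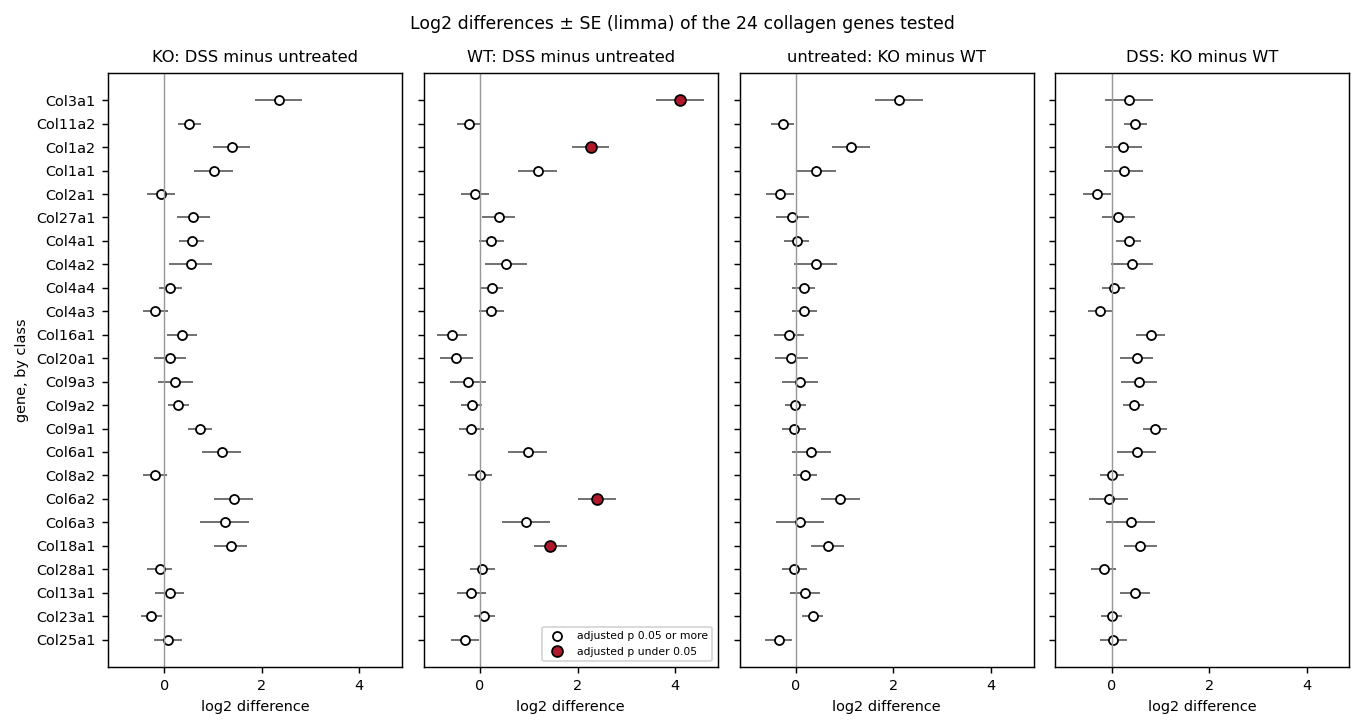
Log2 differences with their standard errors (limma) for the 24 tested collagen genes in 4 comparisons: DSS minus untreated in knockout and in WT, and knockout minus WT without and with DSS. Filled points passed an adjusted p of 0.05, which were Col3a1, Col1a2, Col6a2 and Col18a1 for DSS in WT and none in the other 3 panels.

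Between untreated SMS2 knockout and untreated WT mice no collagen gene passed the test, while 0.338% of the tested genes were higher in the knockout and 0.0538% lower. The largest difference was that of Col3a1, whose signals of 10.05 and 9.61 in untreated knockout were both above the 7.33 and 8.12 in untreated WT. It came to 2.11 ± 0.49 (95% interval 1.03 to 3.19, limma adjusted p = 0.135). Col1a2 had 7.24 and 6.84 in untreated knockout against 5.45 and 6.38 in untreated WT (1.12 ± 0.39, limma adjusted p = 0.435), and Col6a2 had 7.03 and 6.92 in untreated knockout against 5.82 and 6.32 in untreated WT (0.91 ± 0.40, limma adjusted p = 0.75). These 3 of 24 were the collagens with an unadjusted limma p under 0.05, against 6.32% of all tested genes. Arrays did not overlap, with the knockout higher, for 13 of the 42, against 17.1% of all genes, and with the knockout lower for 6, against 19.7%. Among those higher, Col5a1, Col24a1, Col22a1 and Col6a4 were under background on every array, and Col1a1 and Col18a1 on every untreated array. Among those lower, Col2a1, Col19a1, Col8a1 and Col26a1 were under background on every array. The median difference was 0.07, against -0.02 over all genes. Fitting only these 4 arrays gave a call for Col3a1 (limma adjusted p = 0.00408), as did leaving out either knockout array with DSS (0.0143).

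With DSS, no collagen gene passed between knockout and WT in limma, with 2 of 24 at an unadjusted p under 0.05 (Col9a1 and Col16a1), against 10.2% of all tested genes. Of the tested genes, 0.115% were higher in the knockout and 0.238% lower. Arrays did not overlap, with the knockout higher, for 9 of the 42 collagens, against 17.5% of all genes, and with the knockout lower for 2, against 16.7%. Among those higher, Col5a2, Col8a1 and Col26a1 were under background on every array, besides FACIT genes named below. So were the 2 that were lower, Col24a1 and Col10a1. Col3a1 differed by 0.34 ± 0.49 (95% interval -0.73 to 1.42) and Col1a2 by 0.24 ± 0.39 (95% interval -0.61 to 1.08). The sign of the Col3a1 difference depended on which knockout array was used: it was -0.55 without the first and 1.24 without the second. For FACIT collagens all 8 differences were positive, with a median of 0.48 against 0.01 over all genes. That median was 0.29 without the first knockout array with DSS and 0.19 without both arrays that carried pancreatic transcripts, and 5 of the 8 genes were above background on no array. Their arrays did not overlap, with the knockout higher, for 5 of 8 (Col9a1, Col9a2, Col9a3, Col16a1 and Col19a1), against 17.5% of all genes, and Col9a1, Col9a2 and Col19a1 of these were under background on all 8 arrays. Col9a1, a chain of the cartilage collagen type IX, had the smallest p, at 0.88 ± 0.25 (limma adjusted p = 0.257). It passed the filter through its knockout arrays with DSS, and under background that value is no size of a change.

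The difference between the 2 DSS changes, knockout minus WT, did not pass for any collagen in limma, and 4 of 24 had an unadjusted p under 0.05, against 5.45% of all tested genes. For Col3a1 it was -1.76 ± 0.69 (95% interval -3.29 to -0.24, limma adjusted p = 0.808). This interval is not adjusted for the number of genes. The other 3 were positive: Col11a2 at 0.75 ± 0.34, Col9a1 at 0.91 ± 0.35 and Col16a1 at 0.94 ± 0.43, with limma adjusted p of 0.906, 0.771 and 0.908. Of all tested genes 0.0461% were called higher and 0.0308% lower. With both arrays that carried pancreatic transcripts left out, which leaves 1 array in each DSS group, the Col3a1 value was -2.98. That choice was made after seeing the data and drops the array with the highest Col3a1 signal. Over all alternatives the value lay between -2.98 and -0.87, and none of the others gave a call for Col3a1.

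The genes Col11a2, Col8a2, Col16a1 and Col28a1 were above background on all 8 arrays and passed in no comparison. Col11a2, a chain of type XI collagen, had 8.48 and 8.13 in knockout given DSS against 7.64 and 7.93 in untreated knockout, and 7.76 and 7.89 in WT given DSS against 7.98 and 8.15 in untreated WT (TC1700000612.mm.2). Its DSS difference was 0.52 ± 0.24 in the knockout and -0.24 ± 0.24 in WT (limma adjusted p = 0.531 and 0.730). Col8a2, a short-chain collagen known from the cornea, had the narrowest spread of the named genes. It read 7.71 and 7.95 in knockout given DSS against 8.04 and 7.99 in untreated knockout, and 7.56 and 8.09 in WT given DSS against 7.90 and 7.76 in untreated WT (TC0400001460.mm.2). The 95% interval of its DSS difference was -0.73 to 0.36 in the knockout and -0.55 to 0.54 in WT. Col28a1 differed by -0.09 in the knockout and 0.04 in WT.

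Among FACIT collagens, Col16a1 was the only gene above background on all arrays. It had 8.40 and 7.66 in knockout given DSS against 7.58 and 7.75 in untreated knockout, and 7.12 and 7.35 in WT given DSS against 7.48 and 8.14 in untreated WT (TC0400001539.mm.2). The WT arrays with DSS were the lowest, and neither DSS difference passed (0.37 ± 0.30 in the knockout and -0.58 ± 0.30 in WT). Col20a1 was above background on 2 arrays, at 6.27 and 5.76 in knockout given DSS against 5.70 and 6.09 in untreated knockout, and 5.05 and 5.95 in WT given DSS against 5.71 and 6.27 in untreated WT (TC0200002812.mm.2). Its groups overlapped in both genotypes.

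Of the type IV chains, Col4a1 was above background on 3 arrays and Col4a2 on 4, both knockout arrays with DSS among them. Col4a1 had 6.98 and 6.39 in knockout given DSS against 6.13 and 6.11 in untreated knockout, and 6.54 and 6.15 in WT given DSS against 6.06 and 6.16 in untreated WT (TC0800001696.mm.2). Col4a2 had 7.37 and 6.16 in knockout given DSS against 6.14 and 6.30 in untreated knockout, and 5.72 and 6.98 in WT given DSS against 5.58 and 6.05 in untreated WT (TC0800000088.mm.2). Both partner chains were highest on the first knockout array with DSS, which was the highest array for 29 of the 42 collagens. In WT given DSS, Col4a1 read higher on the first array than on the second and Col4a2 the other way round. The lower value of each was under background, so whether the chains moved together cannot be told. None of their DSS differences passed: Col4a1 gave 0.56 ± 0.26 in the knockout and 0.23 ± 0.26 in WT, and Col4a2 gave 0.55 ± 0.44 in the knockout and 0.53 ± 0.44 in WT. The other 4 type IV genes, Col4a3 to Col4a6, were under background on all 8 arrays.

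Several genes of proteins that make, bind or cut collagen rose with DSS in WT mice, and no gene of the 6 lists fell. Of the 58 tested genes in these lists 20 rose, while 2.91% of all tested genes rose and 1.12% fell. Serpinh1, a chaperone specific to collagen, was the only one of 16 tested genes of chain modification and folding to rise, with 9.23 and 8.72 in WT given DSS against 6.91 and 6.95 in untreated WT (2.05 ± 0.45, limma adjusted p = 0.0263). Of 8 tested genes of procollagen processing and crosslinking 2 rose: Pcolce, which enhances removal of the C-terminal propeptide, by 2.38 ± 0.23 (limma adjusted p = 0.000146) and the crosslinking enzyme Loxl1 by 1.97 ± 0.34 (0.00663). Pcolce had 7.96 and 7.97 in WT given DSS against 5.64 and 5.53 in untreated WT, at least 3.56-fold higher. Of 6 tested receptors Ddr2, a receptor tyrosine kinase for fibrillar collagen, rose by 2.30 ± 0.27 (limma adjusted p = 0.000636). Both untreated WT arrays were under background for Loxl1 and Ddr2, which were at least 1.76-fold and 2.65-fold higher with DSS.

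Of 6 tested genes of collagen degradation 5 rose in WT given DSS, among them inhibitors of the enzymes, beside the 2.91% of all tested genes that rose. The other 6 of the 12 genes in this list were above background on no array and were not tested. They were Mmp8, Mmp9, Mmp10, Mmp13, Fap and Timp1. The inhibitor Timp2 rose by 2.80 ± 0.27 (limma adjusted p = 0.000153), the gelatinase Mmp2 by 3.48 ± 0.42 (0.000664), the inhibitor Timp3 by 2.27 ± 0.33 (0.00234) and the collagen-cutting cathepsin Ctsk by 1.25 ± 0.26 (0.0177). Ctsk was under background in untreated WT and at least 1.26-fold higher with DSS. Mmp2 had 9.32 and 10.37 in WT given DSS against 6.18 and 6.54 in untreated WT, with no overlap. Of 12 tested other basement membrane genes 4 rose, the laminin chains Lama4 (1.85 ± 0.31, limma adjusted p = 0.00514), Lamc1 (1.5 ± 0.33, 0.0269) and Lamb1 (1.94 ± 0.48, 0.0475) and nidogen, Nid1 (1.68 ± 0.36, 0.0239). Of 10 tested fibril partners 7 rose, led by the proteoglycan decorin, Dcn (4.65 ± 0.36, 5.69e-05), Sparc, a collagen-binding matrix protein (3.31 ± 0.26, 5.73e-05), lumican, Lum (4.0 ± 0.37, 0.000105), and biglycan, Bgn (3.26 ± 0.35, 0.000317).

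In the knockout, 5 of the 58 genes rose with DSS and none fell, while 0.538% of all tested genes rose and 0.392% fell. Pcolce rose by 1.54 ± 0.23 (limma adjusted p = 0.0129), with 8.07 and 7.70 in knockout given DSS against 6.35 and 6.34 in untreated knockout. The fibril partners Lum (2.34 ± 0.37, limma adjusted p = 0.0148), Dcn (1.95 ± 0.36, 0.0354), Bgn (1.85 ± 0.35, 0.0371) and Sparc (1.38 ± 0.26, 0.0371) rose as well. The count was 14 without the second knockout array with DSS, and 0 without the first or without either untreated knockout array. Without DSS, Sparc (2.08 ± 0.26, limma adjusted p = 0.0100), Timp2 (1.86 ± 0.27, 0.0176) and Dcn (2.17 ± 0.36, 0.0328) were higher in knockout than in WT, 3 of 58 against 0.338% of all tested genes. No gene of the lists passed with DSS between knockout and WT in limma.

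Markers of other cell types moved with the collagens. Of 11 tested fibroblast markers, which share Dcn, Lum, Sparc and Postn with the fibril partners, 10 rose with DSS in WT, 7 in the knockout, and 3 were higher in untreated knockout than in untreated WT. Of all tested genes 2.91%, 0.538% and 0.338% were called higher in these 3 comparisons. For 9 tested markers of endothelium and pericyte these counts were 7, 3 and 2, with list means of 9.08 and 8.46 in knockout given DSS and 7.80 and 7.74 in untreated knockout, against 8.33 and 8.52 in WT given DSS and 6.71 and 6.65 in untreated WT. For 7 tested macrophage markers they were 5, 4 and 0, with list means of 8.38 and 7.70 in knockout given DSS and 6.74 and 6.37 in untreated knockout, against 7.64 and 7.91 in WT given DSS and 5.86 and 5.91 in untreated WT. Their part in the collagen differences was not tested. The macrophage markers C1qb and C1qc passed the filter through the arrays with DSS, so these counts are not counts over all listed markers. Their means were 5.07 and 5.47 in untreated knockout and 4.44 and 4.67 in untreated WT, all under background. Smooth muscle markers had means of 13.10 and 11.29 in knockout given DSS and 12.16 and 12.41 in untreated knockout, against 11.40 and 10.87 in WT given DSS and 10.01 and 10.88 in untreated WT. Unlike Col3a1, their mean was not higher on every array with DSS. None of the 11 was called for DSS in either genotype, and 1 was higher in untreated knockout than in untreated WT. Of 5 adipocyte markers, Adipoq, Plin1 and Lep were under background on all arrays, while Fabp4, which endothelium can also express, rose with DSS in WT by 2.93 ± 0.31 (limma adjusted p = 0.000305) and was higher in untreated knockout than in untreated WT by 1.79 ± 0.31 (0.0373). Cidec fell by 0.85 ± 0.20 with DSS averaged over genotypes (limma adjusted p = 0.0291). Means of 6 enteric glia and neuron markers lay between 5.59 and 6.54, and none of the 5 tested was called in any of these comparisons. Of 8 epithelial markers 1, Krt20, fell with DSS in WT, by 1.10 ± 0.26 (limma adjusted p = 0.0415), and none passed in the knockout.

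**Figure D4:**
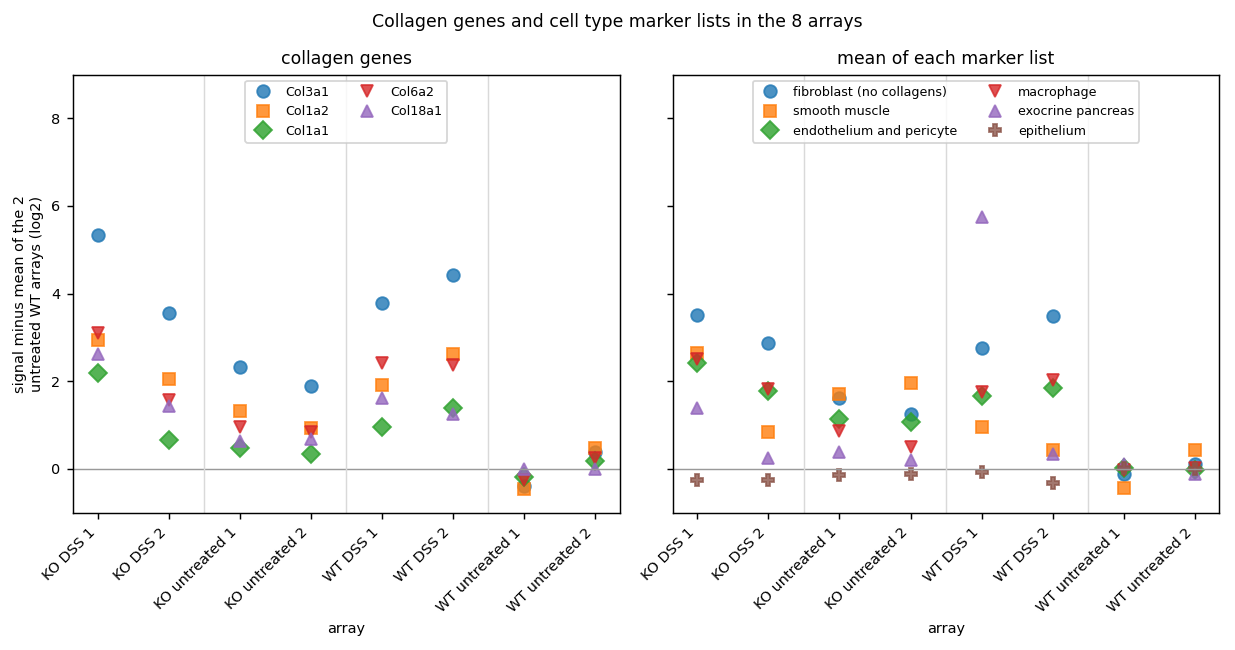
Signal on each array minus the mean of the 2 untreated WT arrays (log2) for Col3a1, Col1a2, Col1a1, Col6a2 and Col18a1 on the left and for the means of 6 marker lists on the right. The fibroblast, endothelium and pericyte, and macrophage lists, like Col3a1, were higher on all 4 arrays with DSS than on the 4 untreated ones, while the exocrine pancreas list stood out on the first WT array with DSS.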

How the data were processed

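RNA of colon epithelial cells was measured on 8 Affymetrix arrays, 2 in each of 4 groups. Affymetrix Expression Console made the deposited log2 values, per the submitters' processing notes. The sources used here do not name its normalization, and no other was applied. Of 28846 rows, 6640 control rows were left out, and 19572 rows with 1 gene symbol gave 19505 genes, the row of highest mean being kept for genes with several. Genes with a mean below 5.15 on the log2 scale, the lowest 33.3%, were not tested, which left 13003. No collagen gene shared its values with another gene.

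In limma 3.58.1 (R 4.3.3), 1 linear model gave each of the 4 groups its mean over all 8 arrays (4 residual degrees of freedom, 7.27 prior). Tests were two-sided, adjusted by Benjamini-Hochberg over all tested genes, and called at 0.05. The number of arrays limits the precision, since p-values reflect only the spread of these samples. The fit was tested on simulated data with independent noise of equal spread on every array. Such data hold no array that stands apart from its replicate, so calls that depend on such arrays were not tested. Background was the 75th percentile of 5222 negative-control rows of the array. Where both arrays of the dimmer group were below it, an "at least" fold is given, from the mean of the brighter group against that background.

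Values on every array are given for members past the threshold in any comparison and for the 2 of highest mean in each class, and up to 4 called genes of smallest p per pathway list. Col6a3, Col5a1, Col5a2, Col9a1, Col28a1, Krt20, Fabp4 and Cidec were chosen after their values were seen. The members and lists were chosen with earlier results of these data known. Medians over a class or over all genes are over every gene, tested or not. Alternatives covered the filter, the scaling, the variance model, array weights, the arrays used, a replicate block, the threshold and leaving out each array. The alternative without both arrays with pancreatic transcripts was chosen after seeing the data.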

Additional observations from a re-analysis of the deposited data

How the results depend on the processing

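With 2 arrays in a group, single arrays moved the counts, and values near background bound the size of any change. No named collagen gene's call reversed. With DSS in WT, Col3a1 passed in all 18 alternatives, Col6a2 in 17 and Col1a2 in 16 of 18, and Col18a1 in 10 of 17. The cause of the changes below was not tested. Leaving out 1 array at a time gave these ranges of collagens called: 0 to 6 for DSS in the knockout, 1 to 7 for DSS in WT, 0 to 1 for knockout against WT without and with DSS, and 4 to 8 for DSS averaged. Pathway genes called ranged from 0 to 14 (5 in the report) for DSS in the knockout, 9 to 23 (20) for DSS in WT and 0 to 5 (3) for knockout against WT without DSS. Class medians ranged, for knockout against WT with DSS, from -0.46 to 0.65 (fibrillar), -0.10 to 0.38 (basement membrane), 0.29 to 0.71 (FACIT) and -0.070 to 0.61 (other). For DSS in the knockout they ranged from -0.035 to 0.365 (basement membrane), 0.13 to 0.48 (FACIT) and -0.066 to 0.39 (other), for DSS in WT from 0.086 to 0.28 (basement membrane), and for knockout against WT without DSS from -0.20 to 0.12 (FACIT). For the interaction they ranged from -0.54 to 0.44 (fibrillar), -0.225 to 0.36 (basement membrane), 0.30 to 0.82 (FACIT) and -0.19 to 0.52 (other).

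At an adjusted p of 0.1, limma called 1 collagen and 8 pathway genes for DSS in the knockout. For knockout against WT with DSS it called 1 pathway gene, as did trend and robust moderation. Array weights called 1 collagen for DSS in the knockout and 1 for knockout against WT without DSS, where 11 pathway genes passed. With only the 4 arrays of the comparison these were 1 and 12, and 1 pathway gene for DSS in the knockout, where quantile normalization gave 2. With a stricter filter on low values, 3 collagens passed for DSS averaged. Without the arrays with pancreatic transcripts, 7 collagens passed for DSS in WT, 1 for knockout against WT without DSS and 1 for the interaction, and pathway genes numbered 12 for knockout against WT without DSS, 1 with DSS and 5 for the interaction.

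Class medians over all members are those reported. Over members past the filter they were 0.78 (fibrillar, DSS in WT) and, for basement membrane, 0.33 (DSS in the knockout) and 0.29 (DSS averaged). The stricter filter left few members in a class. Its fibrillar genes were Col3a1, Col1a2 and Col11a2, so each fibrillar median was the value of Col1a2. These were 1.38 for DSS in the knockout, 2.27 for DSS in WT and 1.12 for knockout against WT without DSS. They were -0.89 for the interaction and 1.82 for DSS averaged. Col16a1 was then the only FACIT gene left. Its own values were -0.58 for DSS in WT, 0.79 for knockout against WT with DSS and 0.94 for the interaction. Other collagens, which were Col6a1, Col6a2, Col6a3 and Col8a2, had medians of 1.21, 0.96 and 1.08 for DSS in the knockout, in WT and averaged. None of these values describes a whole class. Without the arrays with pancreatic transcripts, medians for knockout against WT with DSS were -0.45 (fibrillar), -0.18 (basement membrane), 0.19 (FACIT) and -0.14 (other), those for the interaction -0.51, -0.30, 0.18 and -0.30 in the same order, and those for DSS in the knockout -0.035 (basement membrane) and -0.066 (other).

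Replicate numbers did not pair the arrays: deviations of same-numbered arrays from their group means correlated between -0.25 and 0.28. With the replicate block, 4 collagens passed for DSS in WT, 4 for DSS averaged (without Col1a1) and none in the other comparisons.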
